A study of Mus musculus with 4 samples.

Results

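The cells described here are Pax7-expressing muscle progenitors of fetal leg muscle with few or no transcripts of Mki67 and Top2a, which mark dividing cells. They were chosen as progenitors outside the cell cycle, but replication genes remained detectable in them at the levels given below, so the name rests on these transcripts. They number 1723 of the 36969 cells kept from 4 single-cell libraries, which in turn come from 41741 deposited cells. Members were chosen by their raw counts of unique molecular identifiers (UMIs, each standing for 1 captured transcript). A member held at least 1 UMI of Pax7 and at least 1 UMI of Myf5, Msc or Fgfr4, no more than 1 UMI of Myod1 and 2 of Myog, no more than 2 UMIs of Mki67 and Top2a together, and none of Pdgfra. Cells were kept with 1000 to 6000 genes, with between 1000 and 25000 UMIs, and with mitochondrial transcripts below 8%. WT replicate 1 gave 399 members, WT replicate 2 gave 350, KO replicate 1 gave 523 and KO replicate 2 gave 451.

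The libraries were made with the 10X Genomics 3′ v3 chemistry from leg muscles of fetal mice at stage E18.5 of gestation. WT fetuses were wild type and KO fetuses lacked SYISL, a long noncoding RNA gene whose loss the study followed in muscle development. Fetuses of both genotypes came from 1 litter of heterozygous parents, so every fetus developed in a dam that carried the deletion, and the genotype was read from the tail. Each genotype had 2 libraries, called replicates by the labels. How many fetuses went into a library and their sex are not given in the sources used here, and no feature carries the SYISL name, so the deletion was not checked in these counts. The p-values below therefore measure the spread between these libraries, which may be partly technical.

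Pax7 is the paired-box transcription factor that marks the resident stem and progenitor cells of skeletal muscle, which become satellite cells as they settle under the basal lamina of the fibres. Myf5, Msc and Fgfr4 are transcribed in the same cells. Progenitors that commit raise Myod1 and then Myog, leave the cell cycle for good and fuse into myotubes, while Notch signalling is known to hold others back in the undifferentiated state. Many of them still divide in the fetus, and quiescence is reached after birth.

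Levels below are in CPM, the UMIs of a gene summed over the members of a library, per 1000000 UMIs of those members. The values stand in the order WT replicate 1, WT replicate 2, KO replicate 1 and KO replicate 2 wherever 4 are given. The summed depth was such that a lone UMI weighed 0.278, 0.288, 0.247 and 0.262 CPM. The members had a median of 8600, 9764, 7498 and 8085 UMIs, fewer than the median of the kept cells in each library (10371, 11427, 9118 and 9727). No cell barcode was shared between libraries among the members, while 15 to 27 barcodes were shared by each pair of libraries among the kept cells. A single library stood apart in sex-linked transcripts. Xist, which silences an X chromosome in females, measured 0, 0, 0 and 1139 CPM, and the Y-linked Ddx3y measured 95.2, 115, 114 and 0.786 CPM. KO replicate 2 thus held female cells and the other libraries male cells, and the part of this difference in the comparisons between genotypes was not tested.

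The rule genes themselves describe the selection and support nothing further. Pax7, at chr4:139737062-139833528 on the minus strand (GRCm38, GENCODE vM21), lay at 223, 218, 245 and 211 CPM in the members, Myf5 at 163, 168, 206 and 157, Msc at 363, 413, 409 and 383 and Fgfr4 at 280.1, 283, 242 and 229. Pax7 was held by a lone UMI in 43.9, 42.3, 50.3 and 52.3% of the members, so many cells sit at the edge of the rule. Just outside that edge, 253, 195, 388 and 427 cells met every other condition with no Pax7 UMI, against 175, 148, 263 and 236 members with 1. All 3 partner genes were detected in 50.1, 55.7, 44.6 and 40.8% of the members. At the Myod1 limit, 81, 70, 116 and 91 members held 1 UMI and 49, 36, 46 and 35 cells were left out for holding 2. Of all members, 446 held 1 or 2 UMIs of Mki67 and Top2a together and 1277 held none. At this limit, 26, 27, 36 and 42 members held 2 UMIs of Mki67 and Top2a together, and 14, 15, 23 and 23 cells were left out for holding 3. The Myog limit separated 0, 2, 2 and 5 members with 2 UMIs from 3, 1, 0 and 2 cells with 3. Pdgfra at 1 UMI kept out 15, 11, 19 and 10 cells, and the absence of every partner kept out 6, 9, 12 and 14.

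In droplet data, RNA freed from other cells can give UMIs in cells that do not express a gene. Pax7 together with a partner gene was detected in 1.02, 1.03, 1.69 and 1.34% of the cells with a Pdgfra UMI, which are fibro-adipogenic progenitors and other fibroblasts and had a median of 9421 to 12098 UMIs. In endothelial cells, taken as Pecam1 and Cdh5 positive, the share was 2.30, 1.99, 1.61 and 2.22% at a median of 9082 to 10368 UMIs. Markers of most other cell types were low in the members. The 7 FAP markers (Dcn, Lum, Col1a1, Col1a2, Col3a1, Postn and Twist2) summed to 1231 to 1343 CPM, against 28896 to 32874 CPM in Pdgfra-positive cells with no myogenic or cycle UMI. Endothelial markers summed to 30.8 to 45.0 CPM, macrophage and leukocyte markers to 3.89, 3.75, 67.1 and 25.4 CPM, and the haemoglobin genes, of which Hbb-y was at 0 throughout, to 10.5, 5.19, 3.95 and 76.2 CPM. Glial markers summed to 41.6, 7.49, 43.9 and 8.65 CPM, neutrophil and mast markers to 168, 3.17, 6.41 and 61.0 CPM, and tenocyte markers to 24.99 to 54.2 CPM. No library was high in all of these lists. Chondrocyte markers summed to 89.1, 74.3, 87.8 and 122 CPM, against 719, 810.4, 155 and 986 CPM in the other kept cells. The sum of the smooth muscle and pericyte markers was the exception, at 963, 737, 847 and 1014 CPM against 849, 675, 798 and 662 CPM in the other kept cells. This sum was higher in every library. Of the 5 genes, however, 1 was higher and 3 were lower in all 4 libraries, with a median ratio of 0.552. The part of such transcripts in the results below was not tested. At least 1 UMI of Pecam1, Cdh5, Ptprc, Sox10, Rgs5, Col2a1 or Lum stood in 27.6, 24.9, 18.9 and 27.1% of the members.

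3 other sets of kept cells serve for comparison. Cycling progenitors met the same rule except that they held at least 3 UMIs of Mki67 and Top2a together, and numbered 925 (179, 198, 299 and 249). Myog-expressing cells held at least 3 UMIs of Myog, no more than 2 of Mki67 and Top2a and none of Pdgfra, and numbered 1408 (311, 302, 383 and 412). Fibro-adipogenic progenitors (FAPs) held Pdgfra and no UMI of Pax7, Myod1, Myog, Mki67 or Top2a, and numbered 12496. All sets were drawn from the same libraries by counts, so differences between them are descriptions with no test, and higher or lower in a count of genes means so in all 4 libraries.

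The share of kept cells that were members bears on how the pool of these cells compares between genotypes. Without any correction for depth the members made up 4.69% of the kept cells in WT replicate 1 (95% exact Clopper-Pearson interval 4.25 to 5.16%), 4.28% in WT replicate 2 (3.85 to 4.74%), 5.33% in KO replicate 1 (4.89 to 5.79%) and 4.31% in KO replicate 2 (3.93 to 4.72%). Each cell was then thinned to 5000 UMIs, which left out 510, 392, 730 and 891 shallower cells (22, 7, 55 and 39 of them members), and the rule was applied to the thinned counts. Of the cells that met it then, 79.5, 78.6, 81.1 and 81.5% were also members without thinning, and the rest were not. The thinned shares were 4.13, 3.73, 4.72 and 3.72%. KO replicate 1 was highest and KO replicate 2 lay level with WT replicate 2, so the groups overlapped. The mean was 3.93 ± 0.290% (SD, n = 2) in WT and 4.22 ± 0.708% (SD, n = 2) in KO, a difference of 0.291 points (exact permutation test, two-sided p = 1). With the 6 possible arrangements of the libraries no p below 0.33 was possible. These intervals cover counting error only.

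The choice of denominator changed the direction. Among myogenic cells, taken as kept cells with a UMI of Pax7, Myf5, Myod1 or Myog and none of Pdgfra, the thinned share of members was 25.7, 24.4, 24.2 and 20.8%. The KO libraries were the lowest 2, with 25.1 ± 0.910% (SD, n = 2) in WT and 22.5 ± 2.40% (SD, n = 2) in KO, a difference of -2.53 points (exact permutation test, two-sided p = 0.33, the smallest possible). Left out in turn, the libraries moved the difference over all kept cells from -0.210 points without KO replicate 1 to 0.792 points without KO replicate 2. The cycling progenitors took a thinned share of 1.40, 1.58, 1.98 and 1.69% of the kept cells, with both KO libraries above both WT libraries (difference 0.347 points, exact permutation test, two-sided p = 0.33). Of members and cycling progenitors together, members made up 74.7, 70.2, 70.4 and 68.7%, and the groups overlapped (difference -2.88 points, exact permutation test, two-sided p = 0.667).

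**Figure D1:**
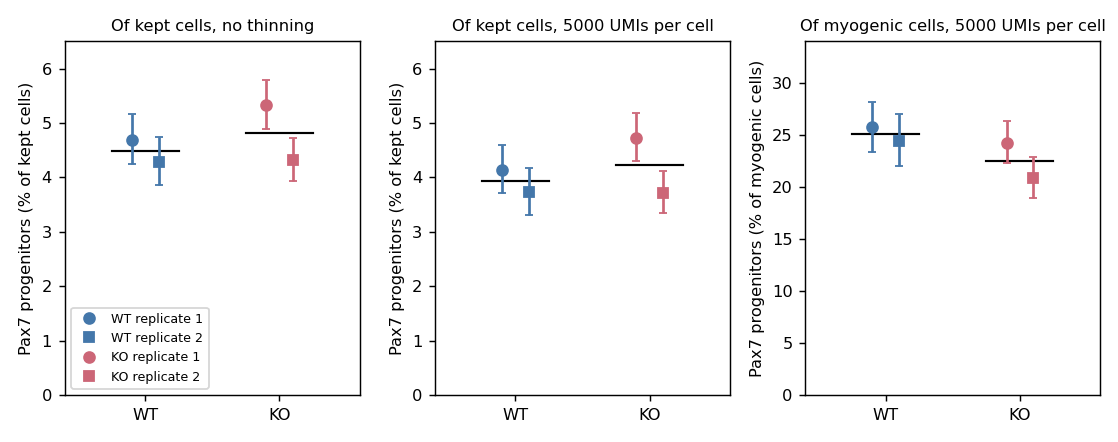
Each point is a library and its whisker the 95% Clopper-Pearson interval; bars are group means, and the vertical axes give the share of cells in percent for all kept cells without thinning, all kept cells thinned to 5000 UMIs, and myogenic cells thinned to 5000 UMIs. KO replicate 1 is the highest library in the first and second panels, and KO replicate 2 is the lowest in the third, at 20.8%.

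The members were then set against all other kept cells. Beside the rule genes, the 12 genes with the highest ratio in the library where it was lowest were Gm14616, Ankfn1, Gm43824, Calcr, Gm32926, Hmcn2, Asb5, Chrna7, Esrrg, Col19a1, Pde1c and Fgf12. Calcr, the calcitonin receptor known to keep adult satellite cells quiescent, lay at 72.2, 53.9, 55.5 and 42.4 CPM, 12.8 times its level in the other cells. Hmcn2, which encodes the matrix protein hemicentin 2, lay at 97.2, 75.2, 83.4 and 69.4 CPM and 10.1 times the other cells. Col19a1, a basement membrane zone collagen, lay at 233, 216, 205 and 241 CPM. Esrrg, an orphan nuclear receptor of oxidative metabolism, lay at 139, 143, 157 and 98.3 CPM, and Fgf12, an intracellular member of the Fgf family that binds sodium channels, at 348, 354, 384 and 243 CPM. KO replicate 2 was the lowest library for Calcr, Esrrg and Fgf12. Of 18 listed basal lamina and matrix genes, 7 lay above and 11 below the other kept cells, with a median ratio of 0.361. Of all 7554 genes that averaged 20 CPM or more in either set, 2788 (36.9%) were higher and 3347 (44.3%) lower in the members in all 4 libraries.

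The genes that separate the members most from Myog-expressing cells are shown first by the sequence before their start sites, to set their letters beside their levels. Calcr and Notch3 were among the 10 genes furthest above the Myog-expressing cells, and Klhl41, Mylk4 and Tnnt2 among the 10 furthest below. The 250 bases before the RefSeq start site (GRCm38.p6) lie at chr6:3763624-3763873 on the minus strand for Calcr, chr17:32166891-32167140 on the minus strand for Notch3, chr2:69669870-69670119 on the plus strand for Klhl41, chr13:32783965-32784214 on the minus strand for Mylk4 and chr1:135836084-135836333 on the plus strand for Tnnt2. For Calcr and Tnnt2 the table holds a further start site, not shown, and CAGCTG was found in neither of those windows. They read, with every CAGCTG in capitals:
Calcr: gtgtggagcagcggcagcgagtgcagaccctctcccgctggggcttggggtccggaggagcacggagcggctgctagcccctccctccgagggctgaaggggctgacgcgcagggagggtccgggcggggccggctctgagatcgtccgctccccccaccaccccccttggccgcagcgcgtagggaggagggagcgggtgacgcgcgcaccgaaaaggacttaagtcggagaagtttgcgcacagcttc
Notch3: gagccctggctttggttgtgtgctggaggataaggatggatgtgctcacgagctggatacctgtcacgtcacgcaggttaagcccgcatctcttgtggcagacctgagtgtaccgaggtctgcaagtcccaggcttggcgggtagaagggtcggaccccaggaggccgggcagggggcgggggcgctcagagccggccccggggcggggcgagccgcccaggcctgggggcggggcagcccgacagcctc
Klhl41: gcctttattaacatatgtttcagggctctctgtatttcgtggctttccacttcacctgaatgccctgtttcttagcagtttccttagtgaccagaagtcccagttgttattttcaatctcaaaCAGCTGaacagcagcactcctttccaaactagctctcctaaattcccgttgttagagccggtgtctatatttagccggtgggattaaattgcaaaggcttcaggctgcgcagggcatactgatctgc
Mylk4: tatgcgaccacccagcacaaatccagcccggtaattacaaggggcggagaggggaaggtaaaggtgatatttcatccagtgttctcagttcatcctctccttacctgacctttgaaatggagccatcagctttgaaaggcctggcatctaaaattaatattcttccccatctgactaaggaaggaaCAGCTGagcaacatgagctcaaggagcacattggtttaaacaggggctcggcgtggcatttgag
Tnnt2: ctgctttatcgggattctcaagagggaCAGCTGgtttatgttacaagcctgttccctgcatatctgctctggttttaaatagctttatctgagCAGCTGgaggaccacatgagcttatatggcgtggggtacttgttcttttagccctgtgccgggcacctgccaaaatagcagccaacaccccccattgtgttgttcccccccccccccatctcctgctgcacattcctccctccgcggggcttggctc

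CAGCTG, which reads the same on both strands and is an E-box form, was searched in windows from 250 bases before to 50 bases after each start site. It was found in 0 of 9 promoters of the higher genes (8 of the 10 genes were matched) and in 6 of 8 promoters of the lower genes (6 of the 10 matched), or in 5 of 6 genes. The windows of both Tnni1 start sites overlap and share the same match. It stood at base -127 of Klhl41, base -64 of Mylk4 and bases -223 and -157 of Tnnt2, counted from the start site. The contractile and early differentiation genes together held it in 12 of 30 promoters (40%), and all promoters of the table in 5355 of 32851 (16.3%). The matches are letters in a window and not measured sites.

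Against Myog-expressing cells the members held less of fusion and sarcomere transcripts. Members held no more than 2 UMIs of Myog and the compared cells at least 3, so the gates themselves bear on these transcripts. Of 6758 genes that averaged 20 CPM or more in either set, 2966 (43.9%) were higher and 2246 (33.2%) lower in the members in all 4 libraries, with a median ratio of 1.06. Mymx, the micropeptide that completes myoblast fusion, lay at 1.39, 1.73, 0.493 and 1.05 CPM in the members and 557, 543, 624 and 495 CPM in Myog-expressing cells. Mymk, its fusion partner, lay at 0.555, 0.288, 1.23 and 1.05 CPM against 168, 172, 199 and 154 CPM. Klhl41, which stabilises the sarcomere, lay at 0.833, 0.576, 1.23 and 0.524 CPM against 138, 170.2, 165 and 148 CPM. Every library of the members lay far below every library of the Myog-expressing cells for these genes. They were picked by their lowest-library ratio, so the gap follows from that choice. The other genes of the lowest 10 were Mylk4, Myo16, Trim55, 2310043L19Rik, Tnnt2, Tnni1 and Sel1l3. Tnnt2, a troponin T of the embryonic sarcomere, lay at 12.5, 16.7, 10.1 and 20.7 CPM against 702, 758, 886 and 866 CPM.

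The 10 genes furthest above the Myog-expressing cells were Calcr, Col6a6, Ankfn1, Nppc, Hmcn2, Chodl, Ntn4, Notch3, Loxl2 and Pxdc1. Calcr lay at 0.821 to 2.03 CPM in Myog-expressing cells, so the members held 39.7 times as much. It was detected in 28.3, 20.6, 18.9 and 18.0% of the members, against 0.634 to 0.929% of the Pdgfra-positive cells. Col6a6, a collagen VI chain, lay at 224, 225, 214 and 187 CPM against 4.81 to 7.87 CPM. Nppc, which encodes C-type natriuretic peptide, lay at 234, 298, 331 and 200.2 CPM against 2.19 to 13.8 CPM, and Chodl, a membrane lectin of the muscle stem cell surface, at 268, 231, 257 and 190.2 CPM against 12.3 to 14.7 CPM. None of these ranges overlapped between the sets. The 10 genes were picked by their lowest-library ratio, so this separation follows from the choice of genes.

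**Figure D2:**
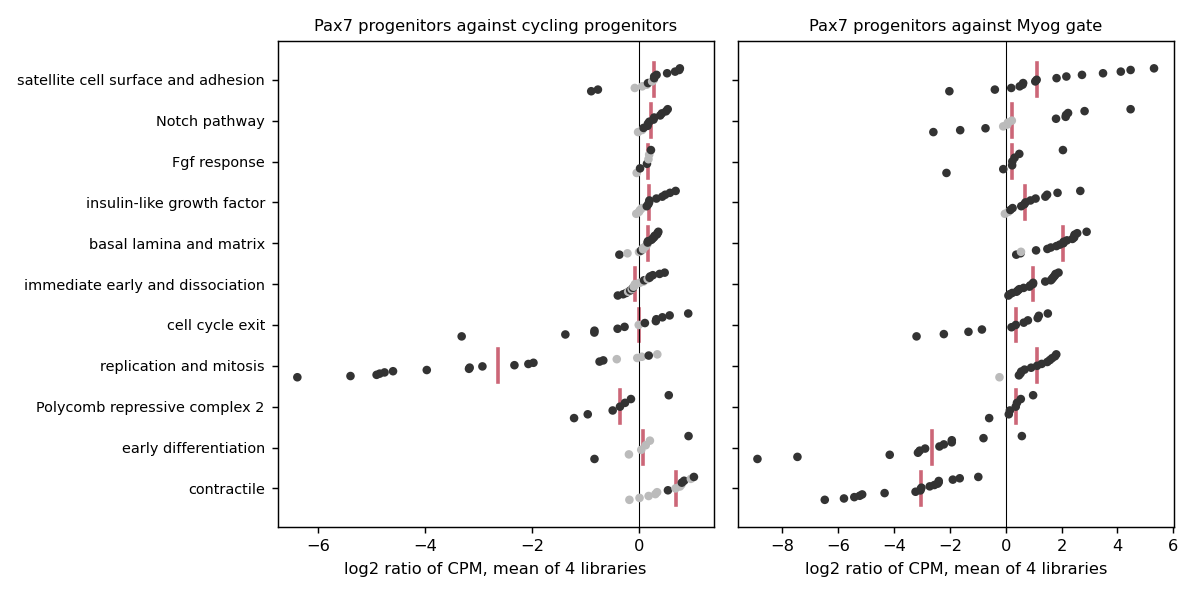
Each point is a gene of 1 of 11 lists averaging 20 CPM or more in either set; the horizontal axis is the log2 of the mean ratio of CPM in Pax7 progenitors to cycling progenitors (left) and to Myog-expressing cells, the Myog gate (right), dark points moved the same way in all 4 libraries and red bars are list medians. The Notch genes sit mostly right of 0 against cycling progenitors (median ratio 1.21), and the contractile genes all sit left of 0 against Myog-expressing cells.

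Among transcription factors of the myogenic lineage, 16 genes had enough counts. Against Myog-expressing cells 11 of them were higher and 4 lower in all libraries, where 43.9% of all genes were higher and 33.2% lower. Against cycling progenitors 4 were higher and 1 lower, where 31.1% of all genes were higher and 29.6% lower. Eya1, a transcriptional coactivator, lay at 98.3, 106, 95.5 and 84.1 CPM and 3.51 times the Myog-expressing cells. Id1 and Id3 encode inhibitors that keep E proteins from pairing with Myod1. Id3 lay at 1145, 1135, 1229.7 and 1055 CPM, 5.31 times the Myog-expressing cells and 1.31 times the cycling progenitors, and Id1 at 412, 506, 479 and 484 CPM, 1.76 times the former. Nfia, a nuclear factor I protein, lay at 1189, 1104, 1101 and 957 CPM and 3.24 times the Myog-expressing cells. Among the lower genes were Mef2a, a partner of the myogenic factors, at 0.310 of the Myog-expressing cells, and Tcf12, an E protein, at 0.769 of them.

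Of the surface and adhesion genes of satellite cells, 13 of 15 were higher than in Myog-expressing cells and 2 lower. Against cycling progenitors 8 of 15 were higher and 2 lower. Of all genes, 43.9% were higher and 33.2% lower in the former comparison, and 31.1% and 29.6% in the latter. Vcam1, a cell adhesion receptor, lay at 191, 169.7, 187 and 154 CPM and 11.2 times the Myog-expressing cells. Itgb1, the integrin beta 1 chain, lay at 464, 475, 504 and 469.8 CPM, and Dag1, the laminin receptor dystroglycan, at 482, 441, 454 and 419 CPM. The 2 lower than in Myog-expressing cells were Megf10, at 0.247 of their level, and Cdh15 (M-cadherin), at 0.765 of it. The 2 lower than in cycling progenitors were Ncam1 (0.588 of their level) and Cdh2, which encodes N-cadherin (0.539 of their level). Calcr was 1.69 times and Met, the hepatocyte growth factor receptor, 1.60 times the cycling progenitors. The Hox genes with enough counts, Hoxa9, Hoxa10 and Hoxc10, were all higher than in Myog-expressing cells, and Hoxa9 and Hoxa10 were lower than in cycling progenitors.

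Notch genes lay mostly above their level in cycling progenitors. In all 4 libraries 10 of 13 were higher and 0 lower, against 2121 of all 6812 genes (31.1%) higher and 2015 (29.6%) lower, with a median ratio of 1.21 for the list and 1.02 for all genes. Among the receptors, Notch3 lay at 196, 196, 183 and 159 CPM in the members, 149, 163, 142 and 147 CPM in cycling progenitors and 14.7, 5.20, 8.86 and 6.78 CPM in Myog-expressing cells. Every library showed this order for Notch3. Notch1 differed little between the sets, at 0.991 times the cycling progenitors and 0.941 times the Myog-expressing cells. Of the targets that carry the signal, Hes1 lay at 233, 230.5, 275 and 243 CPM, 1.13 times the cycling progenitors, Hey1 at 35.8, 43.5, 34.8 and 41.9 CPM, 1.42 times, and Heyl at 53.3, 44.9, 48.4 and 38.0 CPM, 1.46 times. Against Myog-expressing cells 6 of the 13 Notch genes were higher and 3 lower, where 43.9% of all genes were higher and 33.2% lower. The median ratio was 1.17 for the list and 1.06 for all genes. Hey1 and Heyl were 7.09 and 4.43 times the Myog-expressing cells. The ligand Dll1 was the reverse, at 8.64 to 13.0 CPM in the members and 55.8 to 81.3 CPM in Myog-expressing cells, whereas the ligand Jag1 was 4.71 times the Myog-expressing cells. Rbpj, the DNA-binding partner of cleaved Notch, was at 0.606 of them.

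The cell cycle exit genes split. Against cycling progenitors 6 of 13 were higher and 6 lower, and against Myog-expressing cells 9 were higher and 4 lower. Of all genes, 31.1% were higher and 29.6% lower in the former comparison, and 43.9% and 33.2% in the latter. Cdkn1c, the CDK inhibitor p57 that acts in myogenic cell cycle exit, lay at 4399, 5094, 4232 and 5032 CPM, 1.08 times the cycling progenitors and 0.555 of the Myog-expressing cells. Cdkn1a, the inhibitor p21 induced on differentiation, lay at 78.8, 62.8, 83.1 and 62.1 CPM and was lower than in both sets, at 0.563 and 0.216 of their levels. Rb1, the retinoblastoma protein, was lower as well (0.562 and 0.110). The D cyclins were higher than in both sets in every library, Ccnd3 at 222, 232, 221 and 235 CPM (1.36 times the cycling progenitors) and Ccnd2 at 30.0, 42.9, 35.3 and 47.9 CPM (1.90 times). Btg2, an antiproliferative gene of the early response, lay at 739.6, 697, 1062 and 729.7 CPM.

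Mki67 and Top2a mark dividing cells, so the rule itself bears on replication and mitosis genes. Of these, 15 of 20 were lower than in cycling progenitors, against 29.6% of all genes. Mitotic genes lay furthest below, among them the cyclin Ccnb1 at 0.0346, the kinase Aurkb at 0.0119 and the kinetochore gene Cenpf at 0.0369 of the cycling level. Genes of the replicative helicase stood closer. Mcm6 lay at 112, 126, 110.0 and 133 CPM in the members and 102, 110.0, 108 and 102 CPM in the cycling progenitors, higher in all 4 libraries, and Mcm3 and Mcm4 lay at 0.980 and 1.04 times the cycling level. Both were over 3 times the level of the Myog-expressing cells. Per cell, the 20 genes took a median of 10.7, 12.6, 11.7 and 13.9 UMIs per 10000 in the members, 64.3 to 70.7 in cycling progenitors and 4.50 to 5.48 in Myog-expressing cells. Members without any UMI of Mki67 or Top2a still had medians of 9.13 to 11.9, above the Myog-expressing cells in each library.

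Higher than in cycling progenitors by the widest margins were Kdm5b, Rangrf, Kdm7a, Ogn, Psen2, Abhd14a, Acads, Aprt, Gamt and Arhgef25. Kdm5b, a histone H3 lysine 4 demethylase, lay at 39.4, 40.0, 37.0 and 34.3 CPM against 9.46, 8.70, 4.84 and 9.59 CPM. Kdm7a, a demethylase of repressive histone H3 marks, lay at 98.3, 93.1, 90.3 and 87.0 CPM against 28.4, 35.2, 25.6 and 33.1 CPM. Ogn, the matrix proteoglycan osteoglycin, lay at 193, 145, 170.0 and 148 CPM against 58.0, 50.5, 55.8 and 61.3 CPM. No library of the members overlapped the cycling progenitors for these genes, which follows from picking them by their lowest-library ratio. The 10 furthest below were Hist1h2af, Esco2, Plk1, Aurkb, Kif4, Hist1h2ab, Cdca5, Iqgap3, Nuf2 and Cdca2, at 0.0104 to 0.0210 of the cycling level. Polycomb repressive complex 2 and its partners write histone H3 lysine 27 methylation. Of their genes, 6 of 7 were lower than in cycling progenitors (29.6% of all genes). Against Myog-expressing cells 6 of 7 were higher (43.9% of all genes). Ezh2, the catalytic subunit, lay at 177, 182, 194 and 207 CPM, 0.432 of the former and 1.98 times the latter. Jarid2, which recruits the complex, was the exception in both, at 1.48 times and 0.664 of them.

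Basal lamina and matrix genes were higher than in Myog-expressing cells in 17 of 18 cases and lower in 0. They were higher than in cycling progenitors in 10 cases and lower in 1, Fn1. Of all genes, 43.9% were higher and 33.2% lower in the former comparison, and 31.1% and 29.6% in the latter. Col4a1 and Col4a2 encode the collagen IV network of the basal lamina. Col4a1 lay at 828, 741, 807 and 665 CPM, 1.27 times the cycling progenitors and 5.49 times the Myog-expressing cells, and Col4a2 at 361, 363, 374 and 319 CPM, 1.22 and 5.90 times. Lama2, the laminin chain whose loss causes a muscular dystrophy, lay at 578, 471, 559 and 478 CPM, 3.07 times the Myog-expressing cells. The fibrillar collagens of the FAPs were present at low levels, with Col3a1 at 601, 522, 584 and 571 CPM, 0.0892 of its level in all other kept cells, and detected in 91.8 to 96.9% of the members. Tagln and Acta2 encode smooth muscle cytoskeletal proteins that immature muscle cells also make. Tagln lay at 469.7, 391, 429.7 and 491 CPM, 1.91 times the cycling progenitors and 14.5 times the Myog-expressing cells, and was detected in 78.7, 77.4, 74.0 and 72.9% of the members against 4.30 to 8.52% of the endothelial cells. The chondrogenic factor Sox9 lay at 79.1, 65.4, 85.4 and 81.7 CPM, 1.40 times the cycling progenitors.

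Growth factor pathways lay above their level in Myog-expressing cells for most genes, where 43.9% of all genes were higher and 33.2% lower. Of the Fgf response genes, 5 of 7 were higher and 2 lower, with Spry1, the feedback inhibitor of receptor signalling kept on in quiescent satellite cells, at 177, 166, 171 and 151 CPM and 4.14 times, while Spry4 was at 0.230 of them. Of the myostatin and TGF-beta genes, 11 of 15 were higher and 2 lower. Mstn, the ligand that restrains muscle growth, lay at 43.6, 35.4, 45.4 and 55.5 CPM, 1.32 times the cycling progenitors and 2.16 times the Myog-expressing cells, and the ligand Tgfb2 at 252, 234, 264 and 242 CPM, 1.31 and 4.79 times. Of the insulin-like growth factor genes, 11 of 13 were higher and 0 lower. Against cycling progenitors 9 of 13 were higher and 0 lower, where 31.1% of all genes were higher and 29.6% lower. The binding protein gene Igfbp5 lay at 346, 419, 367 and 388 CPM, 1.499 times the cycling progenitors and 6.38 times the Myog-expressing cells. Igf2, the fetal growth factor, lay at 549, 560.1, 585 and 554 CPM, and the receptor Igf1r at 595, 580.0, 595 and 499 CPM. Of the pleiotrophin and midkine genes, 5 of 7 were higher and 1 lower, the midkine gene Mdk at 221, 228, 231 and 277 CPM.

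Immediate early genes, which also rise when tissue is dissociated, were higher than in Myog-expressing cells in 19 of 19 cases (43.9% of all genes). Against cycling progenitors 6 were higher and 5 lower, near the shares of all genes (31.1% higher and 29.6% lower). Fos lay at 2381, 1774, 2091 and 1575 CPM and Egr1 at 1957, 1597, 1754 and 1319 CPM. KO replicate 2 was the lowest library for both, and the part of dissociation in these levels was not tested. The Myog limits of the gates bear on early differentiation and contractile genes alike. Early differentiation genes were lower than in Myog-expressing cells in 11 of 12 cases (33.2% of all genes). The exception was Rapsn, which clusters acetylcholine receptors, at 63.9, 65.4, 68.3 and 61.6 CPM and 1.495 times the Myog-expressing cells. Contractile genes were lower than in Myog-expressing cells in 18 of 18 (33.2% of all genes). Against cycling progenitors 6 of 18 were higher, near the share of all genes (31.1%), and 0 were lower (29.6% of all genes). Among them Tnnt1, a slow troponin T, lay at 98.0, 126, 94.7 and 114 CPM and Tpm2, a tropomyosin, at 151, 146, 143 and 218 CPM. KO replicate 2 held far more of Acta1, the skeletal actin, at 75.5, 54.2, 73.5 and 358 CPM.

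That excess sat in a few cells. The contractile genes summed to 776, 763, 771 and 1929 CPM, and the 5 members with the most contractile UMIs held 8.55, 6.15, 4.38 and 56.2% of the sum. Without those 5 cells in each library the sums were 722, 729, 748 and 858 CPM. The median member held 6.18, 6.35, 6.76 and 7.13 contractile UMIs per 10000, and the highest member 74.8, 32.0, 59.6 and 1818. Members at or above 100 per 10000 were found in KO replicate 2, which had 3, and in no other library.

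**Figure D3:**
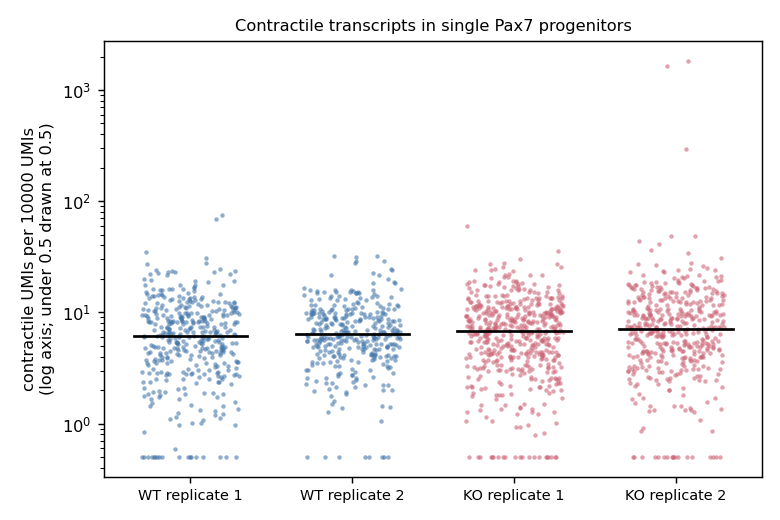
Each point is a member, placed by library; the vertical log axis gives its contractile UMIs per 10000 UMIs, values under 0.5 are drawn at 0.5 and black bars are medians. The medians run from 6.18 to 7.13, and 3 members of KO replicate 2 lie above 100.

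Beyond these lists, variation from cell to cell was ranked by gene. Overdispersion, the variance between members beyond counting noise divided by the squared mean, was computed within each library, and the 10 genes with the highest lowest-library value were Aspn, Ebf1, Cxcl2, Col1a1, Lrmda, Gm28653, Il1rapl2, Adgrb3, Nrg1 and Galntl6. The matrix protein gene Aspn had 40.1, 37.9, 18.8 and 21.3, against a median lowest-library value of 0.101 over 6288 genes. It was detected in 7.77, 6.29, 7.65 and 8.20% of the members (31, 22, 40 and 37 cells), against 80.5 to 86.4% of the FAPs. Ebf1, a factor of mesenchymal and B cells, had 17.0, 62.6, 43.2 and 21.5 and was detected in 10.3, 7.43, 6.69 and 10.2%. Of the pairs among these 10 genes, some were found together more often in every library and others less often. Ebf1 was found in 32.3, 22.7, 22.5 and 29.7% of the members with Aspn and in 8.42, 6.40, 5.38 and 8.45% of those without. Members with Aspn were also deeper, with a median of 10288, 10000, 9166 and 10405 UMIs against 8450, 9741, 7474 and 7998, and the part of depth or of FAP transcripts in this pattern was not tested.

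Nrg1, which encodes the growth factor neuregulin, had an overdispersion of 10.0, 9.48, 11.0 and 16.4 and was detected in 20.8, 19.7, 16.3 and 23.5% of the members. Adgrb3, an adhesion receptor gene, was found in 10.8, 24.6, 10.6 and 23.6% of the members with Nrg1 and in 4.11, 6.41, 4.34 and 6.09% of those without. Galntl6 was likewise found more often beside Nrg1, in 15.7, 11.6, 18.8 and 6.60% against 7.59, 6.05, 8.68 and 3.77%. Il1rapl2 was found less often beside Nrg1, in 14.5, 8.70, 15.3 and 14.2% against 18.4, 24.9, 19.4 and 21.2%. Nrg1 was detected in 27.0 to 32.2% of the FAPs as well. Members with Nrg1 were also deeper in each library, such as 9524 against 8430 median UMIs in WT replicate 1. Members with Galntl6 were deeper too, and numbered only 20 in KO replicate 2. The part of depth in these pairs was not tested.

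Whether the deletion changed the members was asked across all genes with edgeR's quasi-likelihood test on the summed counts of the 4 libraries. Of 11601 genes tested, 3 (0.0259%) passed an adjusted p of 0.05 (Benjamini-Hochberg), all higher in KO. They were Cd74, H2-Aa and H2-Eb1, genes of MHC class II antigen presentation. Cd74, the invariant chain, measured 0.555, 0.288, 21.7 and 18.6 CPM, or 0.422 ± 0.189 in WT against 20.2 ± 2.20 in KO (SD, n = 2), which is 5.49 in log2 terms (SE 0.40) with an edgeR adjusted p of 0.00339. H2-Aa, an MHC class II alpha chain at chr17:34282744-34287823 (GRCm38), measured 0, 0, 28.6 and 17.0 CPM (edgeR adjusted p = 0.0175), and H2-Eb1, a beta chain at chr17:34305867-34316674, 0.278, 0.288, 33.1 and 13.9 CPM (log2 fold change 6.24, edgeR adjusted p = 0.0433). Each gene was higher in either KO library than in any WT library. No fold is given for H2-Aa, whose WT libraries held 0 UMIs.

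These calls rested on a handful of members. Without WT replicate 1 or WT replicate 2 the edgeR adjusted p of Cd74 was 0.0846 or 0.105, and that of H2-Aa 0.164 or 0.152. Cd74 had 2, 1, 88 and 71 UMIs, of which a lone cell held 88 in KO replicate 1 and 70 in KO replicate 2. H2-Aa had 0, 0, 116 and 65 UMIs, held by 1 cell of KO replicate 1 and 2 cells of KO replicate 2, and H2-Eb1 had 1, 1, 134 and 53 UMIs with 131 and 51 of them in a lone cell. The members with at least 5 UMIs of MHC class II, leukocyte, glial, haemoglobin, neutrophil and Col2a1 genes or at least 100 contractile UMIs per 10000 numbered 3, 0, 6 and 9. Without them 0 of 11496 genes were called by edgeR (smallest adjusted p = 0.998), while 164 genes above 0 and 176 below it passed an unadjusted 0.05. This removal was chosen after seeing the data and used the UMIs of the called genes themselves. The loss of these calls thus follows from how the cells were picked. The removal was not run in DESeq2, which called 8 genes of the full sums.

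Before any adjustment 375 genes (3.23%) had p under 0.05, 205 of them higher and 170 lower in KO. The groups did not overlap for 3718 genes (32.0%), with 1529 (13.2%) higher and 2189 (18.9%) lower in KO. Of these, the 5 in each direction with the smallest unadjusted p among genes of at least 20 CPM are given, none of which was called. Dync1i1, a cytoplasmic dynein intermediate chain at chr6:5725639-6028039 (GRCm38), measured 32.5, 29.4, 15.05 and 13.4 CPM, or 30.9 ± 2.19 in WT against 14.2 ± 1.19 in KO (SD, n = 2), which is -1.09 in log2 terms (SE 0.17) with an edgeR adjusted p of 0.226. It was detected in 17.3, 14.9, 7.27 and 7.32% of the members. With the replicate number as a block its edgeR adjusted p was 0.0123, and over all alternatives it ran from 0.000409 without KO replicate 1 to 1.00 without cells holding a UMI of another lineage. In the cycling progenitors it measured 31.3, 34.1, 23.3 and 15.5 CPM, with the groups apart in the same direction, and in the FAPs 11.3, 16.7, 8.38 and 13.8 CPM, where they overlapped.

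The other genes lower in KO were Stard9, a kinesin-like motor gene, at 40.3, 40.6, 28.4 and 22.0 CPM (log2 fold change -0.65), Cradd, an adaptor of cell death, at 36.9, 35.4, 26.1 and 21.0 CPM (-0.59), Myof, a membrane protein that acts in myoblast fusion, at 28.6, 36.6, 21.7 and 19.7 CPM (-0.63), and Ttn, the giant sarcomere protein titin, at 39.7, 52.4, 28.9 and 31.2 CPM (-0.59). Those higher in KO were S100a6, a calcium-binding protein gene abundant in FAPs, at 21.7, 21.6, 32.8 and 41.7 CPM (0.81), the mitochondrial import gene Chchd4 at 25.5, 29.4, 39.7 and 45.1 CPM (0.65), Ankfn1 at 38.9, 27.4, 53.0 and 54.2 CPM (0.72), the protease inhibitor gene Cst3 at 126, 112, 153 and 159 CPM (0.42) and the fast troponin I gene Tnni2 at 55.8, 67.7, 80.9 and 116 CPM (0.70). Their edgeR adjusted p was 0.846 for S100a6 and 0.996 for each of the others. Cst3 held 72 UMIs in a lone cell of KO replicate 1 and 122 in a lone cell of KO replicate 2, and Tnni2 held 65 in a lone cell of KO replicate 2. S100a6, Chchd4 and Ankfn1 had at most 25 UMIs in any member.

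**Figure D4:**
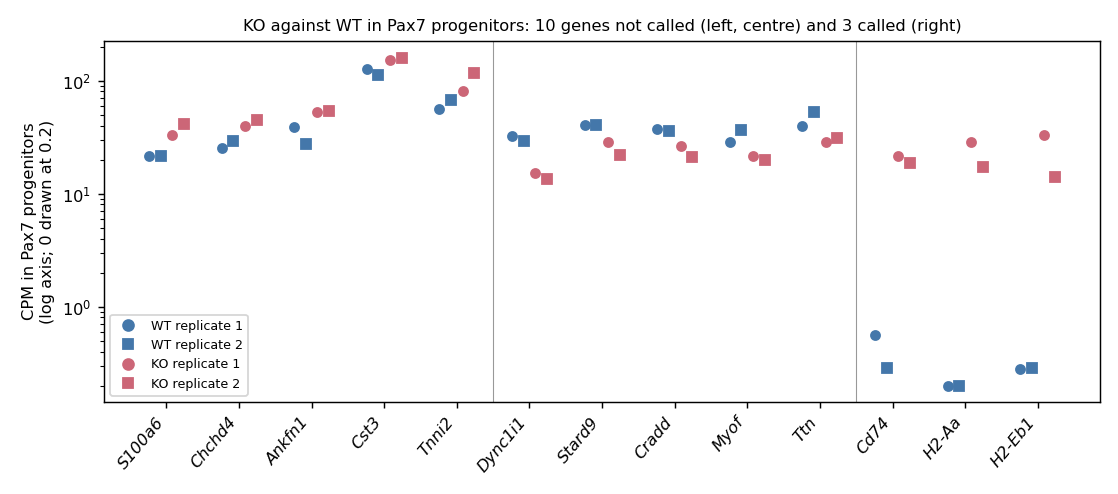
Each point is the CPM of a gene in the summed members of a library on a log axis, WT and KO in different colours; the left and centre panels hold the 10 genes that were not called and the right panel Cd74, H2-Aa and H2-Eb1, with 0 drawn at 0.2. Dync1i1 lies at 32.5 and 29.4 CPM in WT and at 15.05 and 13.4 CPM in KO, and H2-Aa is at 0 in both WT libraries.

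The gene lists held 0 calls in KO against WT, by edgeR at an adjusted p of 0.05. Over all genes tested the median log2 fold change was 0.0051. For the 17 Notch genes tested it was -0.0039, with 0 genes past an unadjusted p of 0.05, for 18 surface genes 0.0028 with 0, for 19 matrix genes -0.04 with 0, for 20 transcription factors -0.0037 with 1 higher, for 14 cell cycle exit genes 0.05 with 1 higher and for 20 replication genes 0.15 with 1 higher and 1 lower. The higher factor was Pax3, the paralog of Pax7 that acts in the migrating embryonic progenitors, at 5.27, 7.49, 12.6 and 13.4 CPM (log2 fold change 1.05, SE 0.27, edgeR adjusted p = 0.996). The groups did not overlap for Pax3. The lists of Fgf response (9 tested, median -0.06), early differentiation (10, 0.06), Polycomb (8, 0.04) and pleiotrophin and midkine genes (10, 0.13) had 0 genes past an unadjusted 0.05, while TGF-beta (19, -0.02) and insulin-like growth factor genes (13, -0.05) had 1 each, higher, and immediate early genes (19, -0.03) had 1, lower. Contractile genes had the highest median among the muscle lists, 0.70 over 15 genes with 8 higher and 1 lower at the unadjusted level. Without the members removed above, picked in part by their contractile UMIs, it was 0.14 with 1 higher and 1 lower. Limb position genes (9, -0.03) had 1 higher and 1 lower. Of the marker lists, the 3 leukocyte genes tested were all higher at the unadjusted level (median 4.26). They fell below the count filter without those members, which were picked in part by leukocyte UMIs. Haemoglobin (2, 2.42) had 1 higher, endothelial markers (4, -0.40) 1 lower, and the FAP (6, -0.02), glial (3, 0.06), smooth muscle (5, 0.20), tenocyte (3, 0.02), chondrocyte (2, 0.84) and neutrophil and mast markers (3, -1.51) 0.

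Of 13 genes tested that the study itself discusses, 0 were called. Notch3 had a log2 fold change of -0.17 and Notch2 of -0.11, Igf1r of -0.08, Igf2 of 0.07, Tgfbr1 of 0.06, Acvr2a of -0.06, Ptn of 0.10, Sdc2 of 0.06, Sdc4 of 0.17 and Myh8 of 0.29. Igf1 (99.1, 87.9, 115 and 108 CPM, log2 fold change 0.28) and Mstn (43.6, 35.4, 45.4 and 55.5 CPM, 0.38) passed an unadjusted 0.05, with an edgeR adjusted p of 0.996 and 0.996. Synpo2, the gene that gives SYISL its name, measured 11.7, 7.78, 6.41 and 8.65 CPM, and its groups overlapped. Several of these signs turned with the library left out.

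Whether the KO difference in the members departed from that in other cells was tested as an interaction, with the library as a block. Against cycling progenitors 9 of 12060 genes (0.0746%) passed, 8 with a higher KO effect in the members and 1 lower, and against FAPs 2 of 16739 (0.0119%), both higher. Pak1, a kinase downstream of Rac and Cdc42, measured 13.3, 20.7, 24.2 and 25.7 CPM in the members and 17.3, 30.3, 9.96 and 9.59 CPM in the cycling progenitors. KO lay above WT in the first set and below it in the second, and the log2 effects differed by 1.82 with an SE of 0.27 (edgeR adjusted p = 0.00979). The Pak1 counts were spread over 35, 46, 61 and 62 members, none with more than 8 UMIs. With the cells described above removed from both sets, 2 of 11928 genes passed against cycling progenitors, Pak1 (1.85, edgeR adjusted p = 0.00773) and Zfp804b (3.31, edgeR adjusted p = 0.0282, but 0.104 when only the cells called by Scrublet were removed and 0.840 without WT replicate 1), and 0 of 16362 against FAPs, where 243 differences above 0 and 324 below it passed an unadjusted 0.05.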

How the data were processed

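Single-cell RNA libraries of fetal mouse leg muscle (2 WT, 2 KO) were analysed from the matrices the authors deposited, which hold raw UMI counts per gene and cell. Per the submitters' processing notes they were made with Cell Ranger 7.2.0 on mm10. Whether intron reads were counted is not given in the sources used here. Deposited totals ran from 109653824 to 126257094 UMIs per library.

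Cells were kept and gated on raw counts as stated in the report, and groups were taken from the labels. The members and gene lists were chosen with earlier results of these data known. No doublet caller was applied. Removing cells called by Scrublet (scanpy 1.11.5), which marked 6, 3, 4 and 9 members, was an alternative. Counts were summed per library (numpy 2.4.6, Python 3.11.15) and tested with edgeR 4.0.16 in R 4.3.3 (TMM factors, filterByExpr, quasi-likelihood test, Benjamini-Hochberg adjustment over all genes tested, threshold 0.05). DESeq2 1.42.0 was an alternative. Differences of the KO effect between cell sets were tested as an interaction with the library as a block. Shares were compared by exact permutation over the libraries (scipy 1.17.1), with 95% Clopper-Pearson intervals. The edgeR test of KO against WT was checked on simulated counts.

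The further alternatives were RLE factors, no filter on low counts, a 10 CPM filter, a replicate block, each library left out, cells with a UMI of another lineage removed, thinning to 5000 or 3000 UMIs, a limit of 0 on Mki67 and Top2a, a denominator of myogenic cells, and a looser cell filter (500 to 7500 genes, at least 500 UMIs, under 15% mitochondrial). Removing the members with many UMIs of another cell type was added after seeing the data.

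The genes named are the rule genes, the 12 genes with the highest lowest-library ratio to the other kept cells, the 10 highest and 10 lowest against each compared set (mean of at least 20 CPM), called genes, the 5 in each direction with the smallest unadjusted p among genes that were not called, whose groups did not overlap and that had at least 20 CPM, the genes the study discusses, members of each list at the highest level or behind a small count, the 10 most overdispersed genes, and sex-linked genes. Other list members with values, among them Calcr, Hey1, Heyl, Dll1, Jag1, Mcm6, Ccnd2, Mstn and Pax3, were picked after their values were seen. Coordinates are from GENCODE vM21 (GRCm38) and promoter sequences from RefSeq (GRCm38.p6).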

Additional observations from a re-analysis of the deposited data

Results flagged for a closer look

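The KO effect in the members differed from that in another cell set for the genes below by the edgeR interaction test, and each difference is a log2 value of members minus the other set. The cause of each was not tested.

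Against cycling progenitors, Pak1 differed by 1.82 (adjusted p = 0.00979) in counts spread over many cells, and it remained called with each library left out in turn. Zfp804b differed by 3.29 (edgeR adjusted p = 0.0343), with 24, 4, 16 and 29 UMIs in 3, 4, 4 and 4 members and 63, 8, 3 and 11 UMIs in the cycling progenitors. Its adjusted p was 0.104 without the cells called by Scrublet and 0.840 without WT replicate 1, and over the alternatives run it ranged from 3.9e-05 to 0.840 in edgeR. Opcml differed by 3.53 (edgeR adjusted p = 0.0157), with 18, 1, 42 and 26 UMIs in the members. Ifi27l2a, an interferon response gene, differed by 5.01 (edgeR adjusted p = 0.00979), with 6, 3, 40 and 8 UMIs in the members. With the cells holding many UMIs of another cell type removed from both sets, neither Opcml nor Ifi27l2a was called (edgeR adjusted p = 0.206 and 0.124). Both stayed called without the cells called by Scrublet, but not with every library left out in turn. Without WT replicate 1 the difference was 4.62 for Opcml and 4.30 for Ifi27l2a, and neither was called. Without KO replicate 1 it was 4.25 for Ifi27l2a, which was not called either.

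For the next genes, most UMIs of a library lay in a lone cell. Stfa1 differed by 8.46 (edgeR adjusted p = 0.00131), with 121 of 127 UMIs of WT replicate 1 and 52 of 53 of KO replicate 2 in a lone member. S100a9, a neutrophil gene, differed by 4.30 (edgeR adjusted p = 0.00659), with 352 of 363 UMIs of WT replicate 1 in a lone member. UMIs in a WT member lower the KO effect in the members, and the S100a9 counts of the cycling progenitors are not given here. Cstdc4 differed by 7.13 (edgeR adjusted p = 0.0108), with 115 of 123 UMIs of WT replicate 1 and all 45 of KO replicate 2 in a lone member. Hba-a1, an alpha globin gene, differed by -5.30 (edgeR adjusted p = 0.00901), and 550 of the 554 UMIs of the cycling progenitors of KO replicate 2 lay in a lone cell. Without KO replicate 2 the difference was -0.671 for S100a9, 4.70 for Stfa1, 2.73 for Cstdc4 and -2.64 for Hba-a1. Col2a1, the cartilage collagen, differed by 4.02 (edgeR adjusted p = 0.00979), with 142 of 147 UMIs of the cycling progenitors of WT replicate 1 in a lone cell, and its edgeR adjusted p was 0.999 without the cells called by Scrublet.

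Against FAPs, Col2a1 differed by 1.85 (edgeR adjusted p = 0.0215) and Tyrobp, a myeloid adaptor gene, by 4.16 (edgeR adjusted p = 0.0215), the latter with 4, 2, 76 and 37 UMIs in 4, 2, 4 and 7 members. Without the cells called by Scrublet, Tyrobp was no longer called (edgeR adjusted p = 0.453), while Col2a1 stayed called (edgeR adjusted p = 0.0106). Col2a1 was not called with the 10 CPM filter (edgeR adjusted p = 0.247). Its difference was 1.36 without KO replicate 2. It was 0.118 with the cells holding many UMIs of another cell type removed, which were picked in part by Col2a1 UMIs.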

How the results depend on the processing

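The 3 genes called in KO against WT were 3 with RLE factors, a 10 CPM filter or Scrublet, but 8 with DESeq2, 37 with no filter, and 0 by edgeR after removing cells with a UMI of another lineage (157 higher and 175 lower past an unadjusted 0.05), thinning (227 and 214), a limit of 0 on Mki67 and Top2a (186 and 201) or removing the members with many UMIs of another cell type (164 and 176). Leaving out a library gave 0 to 154 calls: 0 without WT replicate 1 (238 and 88 unadjusted) or WT replicate 2 (148 and 163), 154 without KO replicate 1 and 64 without KO replicate 2. The lone library left in a group was assumed to vary like the other group. With the replicate number as a block 17 genes were called, and same-numbered libraries did not deviate together (correlation -0.0106 across genes), so the numbers were not read as pairs.

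Against cycling progenitors the 9 differences became 5 at 10 CPM, 2 without the removed cells and 11 to 71 with a library left out (44 without WT replicate 2, 71 without KO replicate 1). Against FAPs the 2 became 0 at 10 CPM (169 higher and 103 lower unadjusted), 0 without the removed cells (243 and 324) and 6 to 128 with a library left out (6 without WT replicate 1, 7 without WT replicate 2, 59 without KO replicate 1, 128 without KO replicate 2). The cause of these changes was not tested. The share difference turned to -2.53 points over myogenic cells and ran from -0.210 to 0.792 points with a library left out.

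Of 350 alternative values for 26 named genes, 318 kept their direction and side of the threshold, 6 lost and 15 gained significance, and 11 reversed. A gene that fell below the count filter in an alternative gave no value there and is in none of these counts, even where it had been called. Of the named genes only Cd74, H2-Aa and H2-Eb1 were called at first. Most kept values are thus of genes that were not called in either fit. Synpo2 was 0.59 when thinned and Myh8 -0.74. With a library left out, Myh8 ran from -0.21 (without KO replicate 2) to 0.67, Acvr2a to 0.079 (without KO replicate 2), Igf1r from -0.19 to 0.030 (without KO replicate 2), Ptn from -0.074 (without WT replicate 1, and -0.067 without KO replicate 2) to 0.29, Sdc2 from -0.073 (without KO replicate 1, and -0.0079 without WT replicate 2) to 0.17 and Sdc4 from -0.080 (without WT replicate 2, and -0.032 without KO replicate 1) to 0.47.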
